A study of Rattus norvegicus with 15 samples.

Results

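The poly(A) mRNA of islet cells given a miR-17-5p mimic was compared with that of islet cells given a control mimic. The comparison rests on 8 of the 15 libraries of the series, chosen by their titles: 3 control libraries, numbered 1, 2 and 3, and 5 miR-17-5p libraries, numbered 1, 2, 4, 5 and 6. Cells of every group came from islets of 10-day-old Sprague-Dawley rats, were dispersed, and were then transfected, so endocrine cells and the stellate, endothelial and blood-derived cells that remain in an islet preparation were measured together. The labels describe each library as a biological replicate, but the replicate numbers in titles and descriptions differ. Beyond those numbers no label ties a library to a culture or an animal. A p-value here therefore covers library-to-library spread alone, and that spread may be technical. The other 7 libraries hold RNA bound to the Argonaute protein Ago2 in the RNA-induced silencing complex (RISC) from control and miR-17-5p cells, and they are used below to set values beside those of mRNA. Their titles carry numbers that mRNA libraries of the same group also carry, so such libraries may share a culture.

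MicroRNAs are short RNAs that guide Argonaute proteins to messenger RNAs, mainly by pairing of their seed, the bases near the 5′ end, with sites in the target. Pairing represses translation and shortens the life of the target, and genes further along a pathway can change in either direction. miR-17-5p is the best known product of the miR-17-92 cluster, which is high in dividing and immature cells and is known for repressing cell cycle inhibitors, pro-apoptotic proteins and receptors of the transforming growth factor beta (TGF-beta) family.

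The microRNA that was added is shown with the other rat microRNAs of the RefSeq table (GRCr8) that carry the same seed, because every one of them could pair with the same target sites. The seed, bases 2 to 8, is in capitals, and the sequences run from 5′ to 3′.
miR-17-5p: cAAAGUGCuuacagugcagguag
miR-20a-5p: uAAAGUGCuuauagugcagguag
miR-20b-5p: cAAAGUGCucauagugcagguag
miR-93-5p: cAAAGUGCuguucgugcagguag
miR-106b-5p: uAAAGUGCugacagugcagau
The table lists the miR-17-5p sequence at chr15:98587861-98587883 on the plus strand, in Mir17, and again at chrX:137343615-137343637 on the minus strand, in Mir106a. Counted from the 5′ end, miR-20a-5p and miR-20b-5p each have the same base as miR-17-5p at 21 positions, miR-93-5p at 19 and miR-106b-5p at 18. The level of the mimic itself was not measured by these libraries. Of the 13 microRNA genes of the 3 related clusters in the count tables, 12 had 0 counts in all 8 libraries, and Mir93 had 2 counts in miR-17-5p library 4. A count of 0 allows up to 3 counts, which is 0.142 to 0.888 CPM (counts-per-million) in these libraries. Mcm7, the replication helicase gene that hosts the miR-106b cluster, had 367, 272 and 89 counts in control and 543, 328, 157, 177 and 293 counts in miR-17-5p libraries, with a log2 fold change of -0.10 ± 0.19 (edgeR adjusted p = 0.825).

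Libraries held 3379456 to 21056240 counts, the largest being miR-17-5p library 1 and the smallest control library 3. The insulin genes Ins1 and Ins2 together took 26.2% to 41.8% of the counts and the ribosomal RNA precursor Rn45s 3.13% to 12.8%. On a principal component analysis the first component held 48.1% of the variance and placed the control libraries between -39.6 and -13.4 and the miR-17-5p libraries between -6.5 and 40.6. miR-17-5p library 1 lay nearest to the control libraries on this axis.

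Many contractile, matrix and adhesion genes rose with miR-17-5p, and some genes of endocrine, neuronal and epithelial cells fell. edgeR's quasi-likelihood test covered 11077 genes, and the 429 (3.87%) with an adjusted p under 0.05 are termed called. Of these 344 (3.11%) were higher and 85 (0.767%) lower with miR-17-5p. The higher genes also had the larger changes: 241 of the 260 called genes with an absolute log2 fold change of at least 1 were higher and 19 were lower. All 5 miR-17-5p libraries lay on the same side of all 3 controls in 418 of the 429 called genes, beside 1683 genes (15.2%) of all tested. The median log2 fold change of all genes tested was 0.01, and that of the called genes was 1.12 in absolute size. At an unadjusted p under 0.05 in the same edgeR test there were 2100 of the 11077 genes. Counts of list members at that limit below are to be read beside this share. Counts of called members are to be read beside the 3.11% higher and 0.767% lower of all genes. Counts of members with a fold change above 0 are to be read beside 50.7% of all genes tested.

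**Figure D1:**
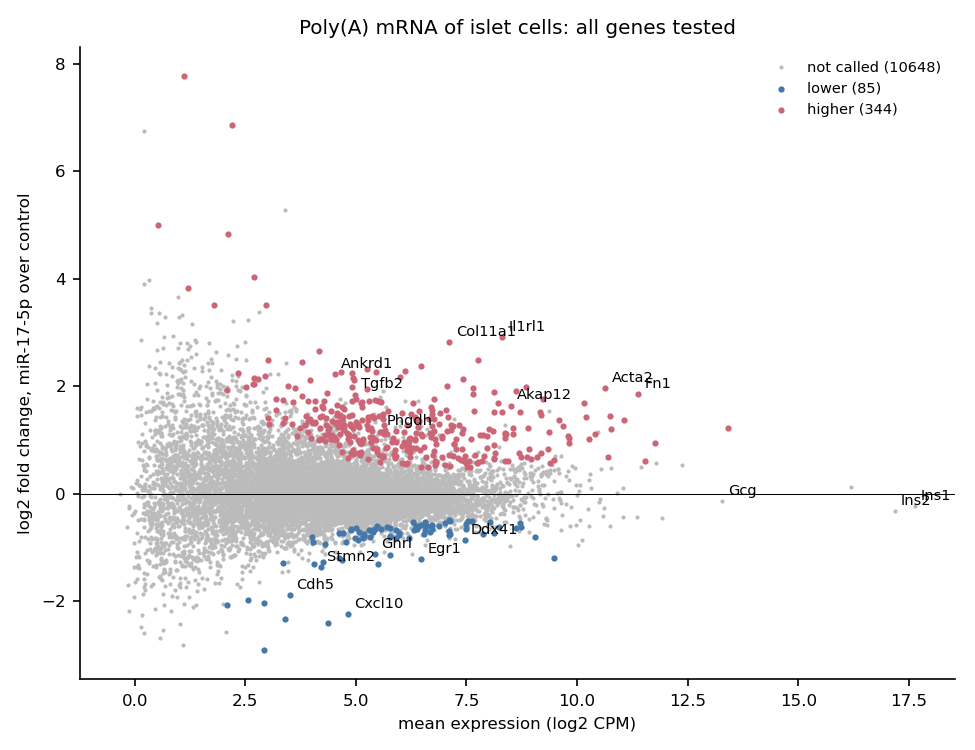
Log2 fold change of miR-17-5p over control (vertical axis) against mean expression in log2 CPM (horizontal axis) for each of the 11077 genes tested, with 344 called higher in red, 85 called lower in blue and the rest in grey. More called genes lie above 0 than below it, and the grey points centre on the median of 0.01.

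The number of calls moved with single libraries. It fell to 85 without control library 3, 107 without control library 2, and 189, 237 and 249 without miR-17-5p libraries 4, 5 and 6, and it rose to 816 without miR-17-5p library 1. A set of 70 genes, 66 higher and 4 lower, was called in the full fit and in each of the 8 fits with 1 library left out. Beside most called genes below, the number of these 8 fits in which the gene was called is given as a count of 8.

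Akap12, a scaffold that holds protein kinases A and C at the cell cortex, had the smallest p of all genes. It stood at 156, 179 and 134 CPM in control libraries 1, 2 and 3 and at 497, 510.0, 519, 483 and 431 CPM in miR-17-5p libraries 1, 2, 4, 5 and 6, an order kept for all values below. The highest control was far under the lowest miR-17-5p library. The change was 1.64 ± 0.14 on the log2 scale (± SE; edgeR adjusted p = 1.8e-04), between 1.54 and 1.75 in the fits with 1 library left out, and the call held in 8 of 8. Tgfb2, a TGF-beta ligand, was at 13.8, 11.4 and 9.67 CPM in control and 39.9, 42.1, 47.3, 44.7 and 39 CPM with miR-17-5p. Its 5 treated values lay close together, and all of them were above the controls (1.85 ± 0.19, adjusted p = 7.8e-04, 8 of 8). Fam198b had 9.39, 7.58 and 12.2 CPM against 32.1, 41.3, 54.6, 43 and 41.5 CPM, a change of 2.16 ± 0.23 (adjusted p = 8.4e-04, 8 of 8). Ahnak, a very large scaffold protein of the cell membrane, was nearly level among controls at 147, 141 and 148 CPM and reached 326, 421, 568, 341 and 422 CPM. Its groups did not overlap, and miR-17-5p library 4 was the highest.

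The genes with the largest changes among well expressed genes had more spread between treated libraries. Il1rl1, the receptor of interleukin 33, was at 68.4, 76.5 and 39.9 CPM in control and 172, 443, 834, 413 and 486 CPM with miR-17-5p (2.91 ± 0.47, adjusted p = 0.0112, called in 7 of 8). The groups did not overlap, but library 1 was lowest and library 4 highest among the treated by a wide margin. Col11a1, a chain of the fibrillar collagen XI, went from 34, 34.8 and 15 to 128, 135, 306, 218 and 235 CPM (2.83 ± 0.37, 8 of 8). Itga11, a collagen-binding integrin, went from 68.3, 68.3 and 29.6 to 189.8, 254, 508, 293 and 333 CPM (2.48 ± 0.37, 8 of 8), again with library 1 lowest and library 4 highest. Cnn1, Sulf1 and Cdh3 had log2 changes of 2.38, 2.29 and 2.32, called in 8, 8 and 6 of 8 fits. Wisp2, Vegfc and Gstm2, at under 10 CPM in every control, had changes of 2.65, 2.49 and 2.46 and were called in 4, 3 and 4 of 8.

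**Figure D2:**
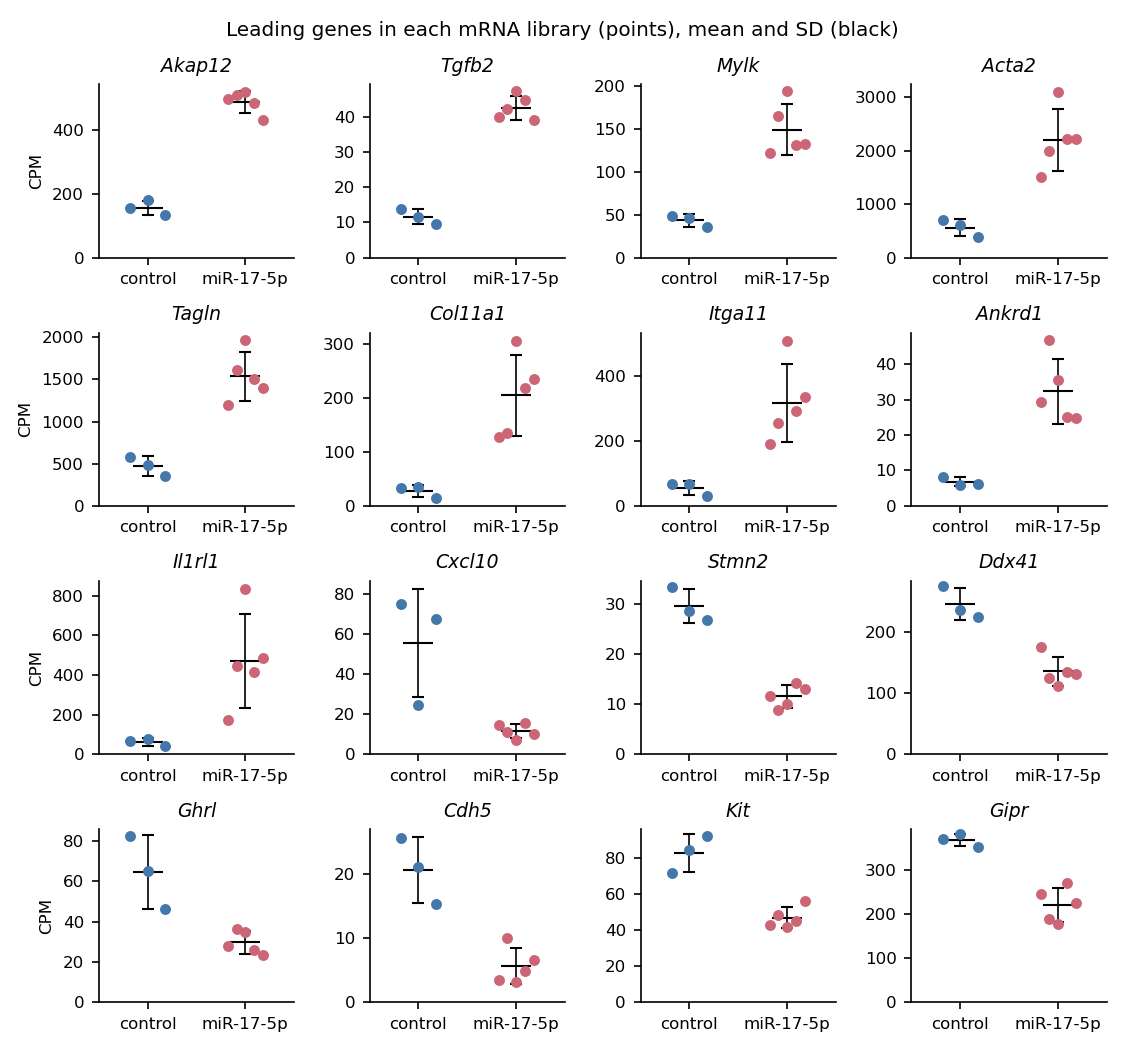
CPM of 16 genes in each mRNA library (points; blue control, n = 3, red miR-17-5p, n = 5), with the mean as a black dash and the SD as bars, on axes that start at 0. The points of the groups do not overlap in any panel, and library 4 is the highest treated point for Il1rl1, Col11a1, Itga11 and Acta2.

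The contractile apparatus of smooth muscle, pericytes and activated stellate cells was the gene list with the largest called share. Actin filaments made of Acta2 and Actg2 are pulled by myosin, whose light chain Myl9 is phosphorylated by the kinase Mylk, while calponin, transgelin, tropomyosins and caldesmon sit along the filament. Of the list, 28 genes had a row of counts and 26 passed the filter on low counts, and 20 of them were called higher and 1 lower, 76.9% higher beside 3.11% of all genes. Their median log2 fold change was 1.52, and 12 of the 20 were called in all 8 fits. The count of higher members fell to 12 without control library 2 or 3 and stayed between 16 and 20 in the other fits.

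Acta2, smooth muscle actin, was at 696, 605 and 391 CPM in control and 1511, 1990.2, 3103, 2215 and 2215 CPM with miR-17-5p (1.97 ± 0.25, adjusted p = 0.00128, 8 of 8). Tagln, transgelin, went from 583, 488 and 351 to 1195, 1613, 1973, 1504 and 1398 CPM (1.69 ± 0.20, adjusted p = 0.00105, 8 of 8). In both genes control library 3 was the lowest of all libraries and miR-17-5p library 4 the highest, and the groups did not overlap. Mylk had 49, 46.4 and 35.3 CPM in control and 122, 164, 194, 132 and 132 CPM with miR-17-5p (1.76 ± 0.18, adjusted p = 7.8e-04). Myl9 had 95.9, 71.3 and 60.2 CPM against 193, 266, 382, 279.9 and 254 CPM (1.85 ± 0.22, adjusted p = 0.00100). Each treated library exceeded each control for these parts of the myosin switch. Actg2, Tpm2, Lmod1, Cald1, Tpm1, Flnc and Flna also rose in 8 of 8 fits, by 2.13, 1.92, 1.69, 1.53, 1.52, 1.53 and 1.45.

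Contractile genes with smaller or less stable calls were Myh11, the smooth muscle myosin heavy chain (1.70, 3 of 8), and Des, the intermediate filament desmin (1.69, 5 of 8). Myh11 was at 18.3, 21.1 and 18.7 CPM in control, and of the treated values 35.8, 37, 121, 60.02 and 63.3 CPM the highest, in library 4, was far from the rest. Synpo2, an actin-bundling protein, was the 1 member called lower (-0.58, 2 of 8). Srf, the transcription factor that drives many genes of the list, was at 122, 87.7 and 99.8 CPM in control and 103, 125, 104, 101 and 101 CPM with miR-17-5p, with overlapping groups and a change of 0.05 ± 0.14 (adjusted p = 0.889). Cytoplasmic actins, which share most of their sequence, were called with changes of 0.94 for Actb (4 of 8) and 0.69 for Actg1 (2 of 8).

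**Figure D3:**
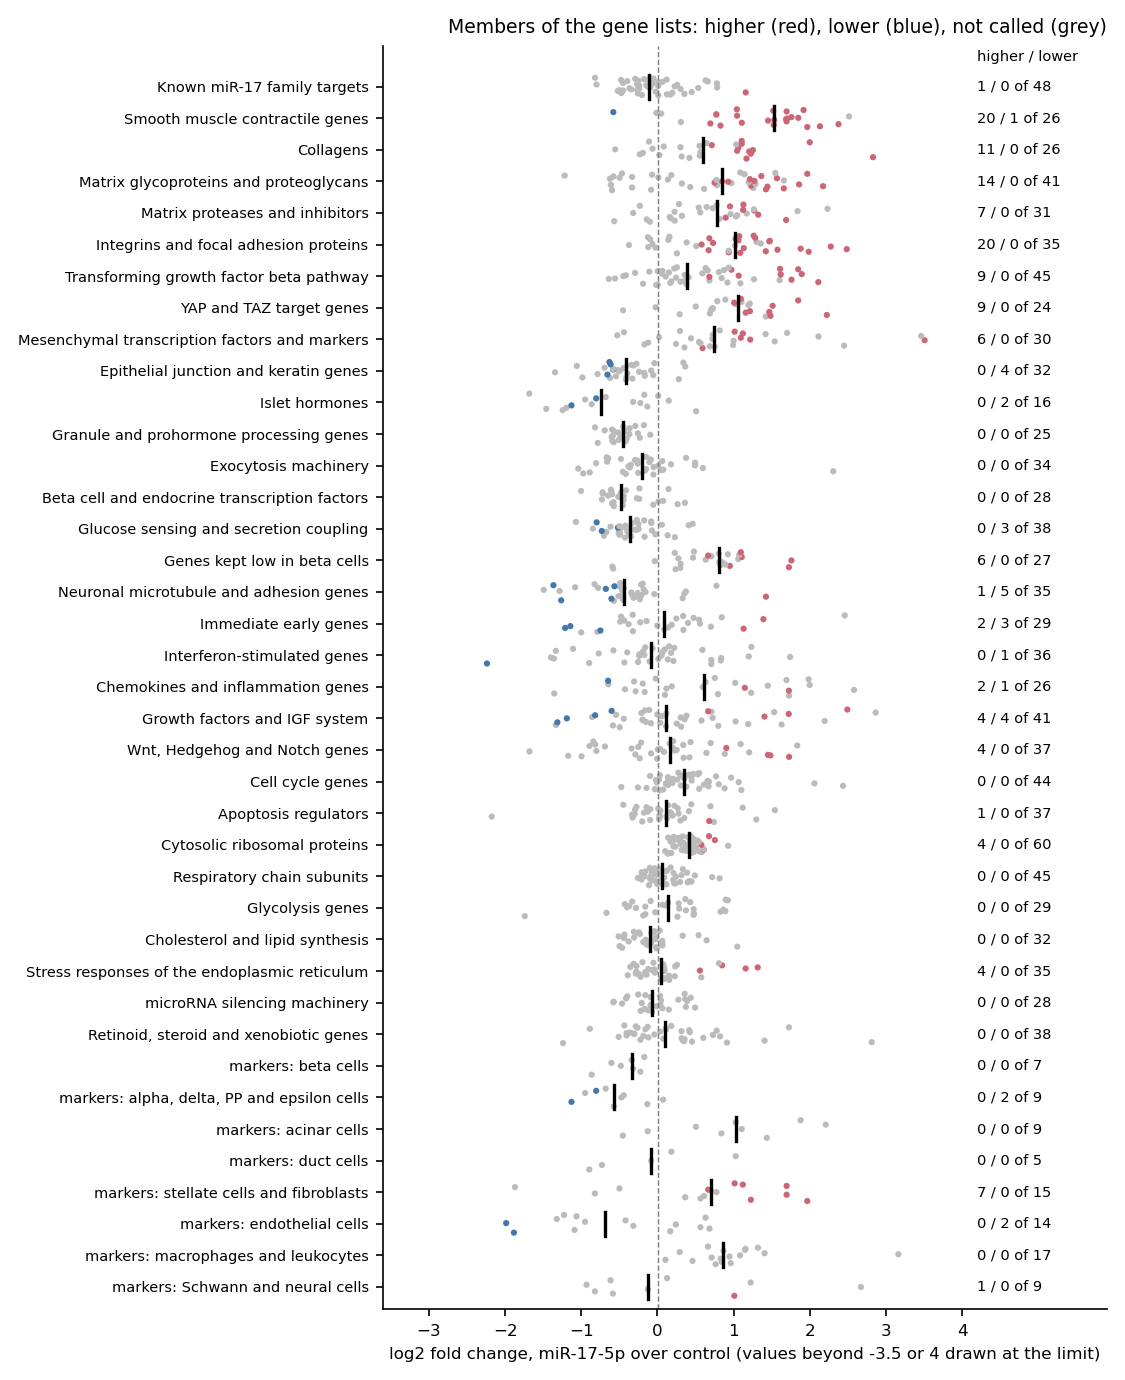
Log2 fold change of miR-17-5p over control (horizontal axis) for every tested member of the gene lists with at least 5 tested members (1 row a list, 1 point a gene), with called higher in red, called lower in blue and not called in grey. The black bar is the list median and the dashed line the median of all genes, and the numbers at the right count called members. The medians run from 1.52 for contractile genes to -0.74 for islet hormones, and the contractile and adhesion lists hold 20 red points each.

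Several of these genes are also made by stellate cells and fibroblasts, so the markers of those cells are given here. Of 16 such markers with a row of counts 15 were tested, and 7 were called higher and 0 lower, Acta2, Tagln and Des among them. That count was 3 without control library 2 or miR-17-5p library 4, 2 without control library 3, 4 without miR-17-5p library 5, and 5 to 8 in the other fits. The summed level of the markers was 8434 to 14609 CPM in control and 14911 to 31971 CPM with miR-17-5p, without overlap, and Col1a2 was at 0 in every library. This sum was made mostly of Col1a1, a called gene described below, so it is not separate evidence for the other markers. Markers outside the contractile list differed in size. Thy1, a surface protein of fibroblasts, went from 62.5, 44.3 and 45.2 to 119.9, 136, 118, 90.2 and 90.03 CPM (1.12 ± 0.18, 7 of 8), and Vim, vimentin, from 977, 729 and 562 to 1053, 1459.8, 2079, 1527 and 1516 CPM (1.01 ± 0.22, 4 of 8). Both sets of treated values lay above the controls. The groups overlapped for Pdgfra, a receptor that marks fibroblasts (22.7, 17.6 and 29.3 CPM against 15.9, 61, 57.1, 21.9 and 32.3 CPM, 0.71 ± 0.42, adjusted p = 0.403). They also overlapped for the matrix proteoglycan Dcn (0.61 ± 0.35, adjusted p = 0.378) and for Postn (-0.50 ± 0.27, adjusted p = 0.356), whose treated mean was below the control mean. In bulk libraries more cells of a type and more RNA per cell cannot be told apart, and the part of these cells in the contractile and matrix results was not tested.

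The promoters of the rising contractile and adhesion genes were searched for a CArG box, the site of Srf, spelled CC, then 6 bases that are A or T, then GG, and for the TEAD site GGAATG or its reverse complement CATTCC, on both strands. The search was chosen after the values had been seen. It used the RefSeq promoters (GRCr8), which run from 250 bases before to 50 after the start of a gene. Of all 27457 promoters 1.64% held a CArG box, as did 8 of the 244 promoters found for the genes called higher (3.28%) and 1.22% of those of all genes tested. Among the 16 promoters of contractile genes called higher 0 held one of this exact spelling in this window. Spellings with a G or C among the 6 bases were not counted, and the Acta2 promoter holds such near matches. The 0 therefore does not mean that these promoters lack a site of Srf. Among the 16 promoters of integrin and focal adhesion genes called higher 4 did, and these are shown because they are the only matches in that group, with the CArG box in capitals.
Fhl2: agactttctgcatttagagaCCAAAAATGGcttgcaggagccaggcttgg
Fhl1: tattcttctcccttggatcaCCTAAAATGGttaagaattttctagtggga
Fblim1: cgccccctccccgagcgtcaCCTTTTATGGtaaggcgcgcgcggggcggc
Lima1: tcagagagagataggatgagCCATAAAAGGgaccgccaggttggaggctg
They lie at chr9:52954606-52954655 (minus strand), chrX:139638374-139638423 (plus strand), chr5:159196847-159196896 (minus strand) and chr7:132880523-132880572 (minus strand), and begin 95, 102, 60 and 209 bases before the start. A TEAD site stood in 13.9% of all promoters, 11.3% of those of genes tested and 48 of 244 of the genes called higher (19.7%). For genes called higher it stood in 5 of 16 integrin and focal adhesion promoters and in 0 of 10 collagen promoters. Of the YAP and TAZ targets called higher, described below, 2 of 5 promoters held it. It also stood in 6 of the 16 contractile promoters, those of Acta2, Mylk, Tpm1, Cald1, Flna and Flnc. The first 3 are printed with the site in capitals, and with them that of Amotl2, described below, as examples.
Acta2: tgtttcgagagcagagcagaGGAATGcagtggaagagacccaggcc
Mylk: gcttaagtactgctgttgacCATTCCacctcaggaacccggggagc
Tpm1: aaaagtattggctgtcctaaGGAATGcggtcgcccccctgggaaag
Amotl2: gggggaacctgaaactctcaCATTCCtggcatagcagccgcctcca
These windows are chr1:241172674-241172719 (minus strand), chr11:79498585-79498630 (minus strand), chr8:76543421-76543466 (minus strand) and chr8:112182530-112182575 (plus strand). No printed CArG box overlapped a TEAD site, and a match of letters is not a measured binding site.

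Collagens and the enzymes that fold and trim them rose in part. Of 26 tested members 11 were called higher and 0 lower, with a median of 0.60. Beside Col11a1, Plod2, which hydroxylates lysines for collagen crosslinks, was called in 8 of 8 fits, from 59.7, 39.5 and 39.6 CPM in control to 107, 287, 204, 154 and 179.7 CPM with miR-17-5p (2.00 ± 0.29, adjusted p = 0.00442). The treated libraries were all above the controls, library 2 by the most. Col4a1, a basement membrane collagen (1.20), Serpinh1, the collagen chaperone (1.11), and Pcolce, which speeds the trimming of procollagen (1.11), were called in 6, 6 and 6 of 8. Col1a1 was at 8100.1, 5399.9 and 4394 CPM in control and 8346, 15029, 18650.1, 12889 and 14848 CPM with miR-17-5p (1.23 ± 0.27, 3 of 8). Its groups did not overlap, yet treated library 1 was barely above control library 1. Col3a1 did not pass (0.56 ± 0.26, adjusted p = 0.255). The list's count was 2 without control library 2 or 3, 7 without miR-17-5p library 4, 14 without library 1 and 8 to 11 in the other fits.

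Of 41 matrix glycoproteins and proteoglycans tested 14 were called higher and 0 lower, with a median of 0.85. That is 34.1% higher, beside 3.11% higher and 0.767% lower of all genes. The list was chosen with earlier results known and leaves out the matrix protein Dpt, which was called lower and is described below. Fbln5, which builds elastic fibres, was at 21.7, 25.7 and 10.6 CPM in control and 75.3, 77.8, 109, 99.5 and 89.1 CPM with miR-17-5p (2.17 ± 0.24, adjusted p = 8.4e-04, 8 of 8). Fn1, fibronectin, was at 1364, 944 and 722 CPM and 1957, 4163, 5272, 3267 and 3669.9 CPM (1.86 ± 0.30, adjusted p = 0.00635, 7 of 8). Neither gene's groups overlapped, and Fn1 had its lowest treated value in library 1. Nid2, a basement membrane linker (1.57), and Loxl3, a lysyl oxidase-like crosslinking enzyme (1.27), were called in 8 of 8. Bgn and Sparc, called in 6 and 6 of 8, had changes of 1.42 and 1.36. The matricellular gene Sparcl1 had the opposite sign, 44, 30.6 and 38.7 CPM against 10.6, 7.47, 16.9, 26.1 and 20.8 CPM, without overlap but also without passing (-1.22 ± 0.33, adjusted p = 0.0560). The list's count was 3 and 4 without control libraries 3 and 2, 7, 9 and 11 without miR-17-5p libraries 4, 6 and 5, and 21 without library 1.

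Among 31 matrix proteases and their inhibitors 7 were called higher and 0 lower. Adam19, a membrane-bound metalloprotease, was the member called in 8 of 8 fits, at 147, 117 and 109 CPM in control and 273, 488, 479.7, 382 and 387 CPM with miR-17-5p (1.69 ± 0.19, adjusted p = 9.3e-04). The lowest treated value, in library 1, was well above the highest control. Mmp19, a secreted metalloprotease, rose by 1.27 (7 of 8). Mmp2 and its inhibitor Timp2 had changes of 1.12 and 1.13 and were called in 4 and 2 of 8. The list count was 3 and 1 without control libraries 2 and 3, 2 without miR-17-5p library 4, 4 without library 2 or 5, 3 without library 6, and 6 or 10 without control library 1 or miR-17-5p library 1.

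Integrins, which tie the matrix to the cell, and the proteins of focal adhesions, which tie integrins to actin, formed a further list. Of 35 tested, 20 were called higher and 0 lower, with a median of 1.02. Vcl, vinculin, was at 167, 137 and 136 CPM in control and 287, 333, 349, 287 and 289.7 CPM with miR-17-5p (1.07 ± 0.13, adjusted p = 0.00125, 8 of 8), with little spread in either group. Itga4, a receptor of fibronectin and of VCAM1, was at 5.26, 8.57 and 9.05 CPM and 18, 22.4, 34.8, 31.2 and 31.5 CPM (1.88 ± 0.29, adjusted p = 0.00419, 8 of 8). Itga8, an integrin of contractile cells, was at 16.1, 14.3 and 6.24 CPM and 32.4, 82.3, 90.2, 43 and 61.4 CPM (2.27 ± 0.38, 7 of 8). Each of these had no overlap between groups.

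The common partner of these alpha chains, Itgb1, did not pass (362, 328 and 295 CPM against 355, 462, 617, 425 and 479 CPM, 0.51 ± 0.17, adjusted p = 0.116), and its groups overlapped. Among linker proteins Nedd9, a scaffold of the Cas family (1.47), Lpp (1.47) and the LIM proteins Fhl1 (1.98), Fhl2 (1.42) and Zyx (1.26) were called, in 6, 7, 6, 6 and 5 of 8. Fhl1, Fhl2, Fblim1 and Lima1 are the genes whose promoters with a CArG box are printed above, and the last 2 were called in 3 and 2 of 8. The list count was 5 and 4 without control libraries 2 and 3, 14 without miR-17-5p library 4, and 16 to 21 in the other fits.

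TGF-beta ligands are secreted in a latent form bound to Ltbp proteins and signal through the receptors Tgfbr1 and Tgfbr2 to Smad proteins. Of 45 members of the pathway tested 9 were called higher and 0 lower, with a median of 0.38. The called genes were ligands (Tgfb1, Tgfb2, Tgfb3, Inhba, Bmp6), latency proteins (Ltbp1, Ltbp2), the secreted follistatin-like protein Fstl1 and the target Id3. Tgfb3 was at 54, 46.1 and 33.7 CPM in control and 91.9, 129.9, 193, 136 and 137 CPM with miR-17-5p (1.61 ± 0.22, adjusted p = 0.00231, 8 of 8). Ltbp2 was at 137, 97.5 and 71.1 CPM and 269.6, 397, 527, 353 and 361 CPM (1.89 ± 0.24, adjusted p = 0.00136, 8 of 8). Their treated libraries all exceeded the controls. Fstl1 rose by 1.76 (8 of 8), Bmp6 by 2.11 (7 of 8) and Tgfb1 by 0.97 (4 of 8).

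The receptors did not pass. Tgfbr2, a known target of the miR-17 seed, was at 23.9, 16.5 and 11.2 CPM in control and 6.08, 27.9, 45, 25.3 and 33.1 CPM with miR-17-5p (0.63 ± 0.51, adjusted p = 0.558), and Tgfbr1 at 24.8, 51.2 and 35.6 and 37, 39.1, 54.7, 37.3 and 48.7 CPM (0.22 ± 0.23, adjusted p = 0.651). Both overlapped. Smad7, the inhibitory Smad that the pathway induces, was tight in control at 27, 26.5 and 26.5 CPM and higher in all 5 treated libraries at 32, 49.5, 47.1, 42.3 and 40.3 CPM, but missed the threshold (0.66 ± 0.18, adjusted p = 0.0543). Id3 was called (0.68 ± 0.15, 4 of 8) and Id1 was not (0.24 ± 0.25, adjusted p = 0.657). The list count was 4 without control library 2, 5 without control library 3, 6 without miR-17-5p library 4 or 5, and 8 to 10 in the other fits.

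YAP and TAZ are coactivators that sense tension and cell shape and act through TEAD factors. Of 24 target genes and factors tested 9 were called higher and 0 lower, with a median of 1.06. A fold change above 0 was found in 22 of them, beside 50.7% of all genes. Ankrd1, a muscle ankyrin repeat protein and a common readout of YAP, was at 8.26, 5.96 and 6.24 CPM in control and 29.4, 46.8, 35.6, 25 and 24.7 CPM with miR-17-5p (2.22 ± 0.27, adjusted p = 0.00125, 8 of 8). Amotl2, an angiomotin that binds YAP, was at 59.8, 42.2 and 44.9 CPM and 113, 156, 154, 128 and 137 CPM (1.48 ± 0.16, adjusted p = 8.4e-04, 8 of 8). Neither gene's groups overlapped. Myof, the membrane repair protein myoferlin (1.51), Crim1 (1.16) and Tgfb2 were also called in 8 of 8.

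The secreted YAP targets Ctgf and Cyr61 rose by 1.47 and 1.21, each called in 6 of 8 fits. Ctgf was at 352, 284 and 192 CPM in control and 404, 764, 1074, 743 and 840.5 CPM with miR-17-5p, with treated library 1 the nearest to the controls. Yap1 itself was at 16.2, 10.8 and 8.74 CPM and 21.9, 27.3, 28.3, 28.2 and 24.3 CPM (1.09 ± 0.23, 4 of 8), and Tead1 at 9.86, 9.81 and 13.1 and 19.8, 26.6, 21.7, 18.2 and 22 CPM (1.01 ± 0.23, 3 of 8). Both were higher in every treated library. The TAZ gene Wwtr1 overlapped and did not pass (0.89 ± 0.36, adjusted p = 0.199). The list count was 5 without control library 2 or 3, 14 without miR-17-5p library 1, and 7 to 10 in the other fits.

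**Figure D4:**
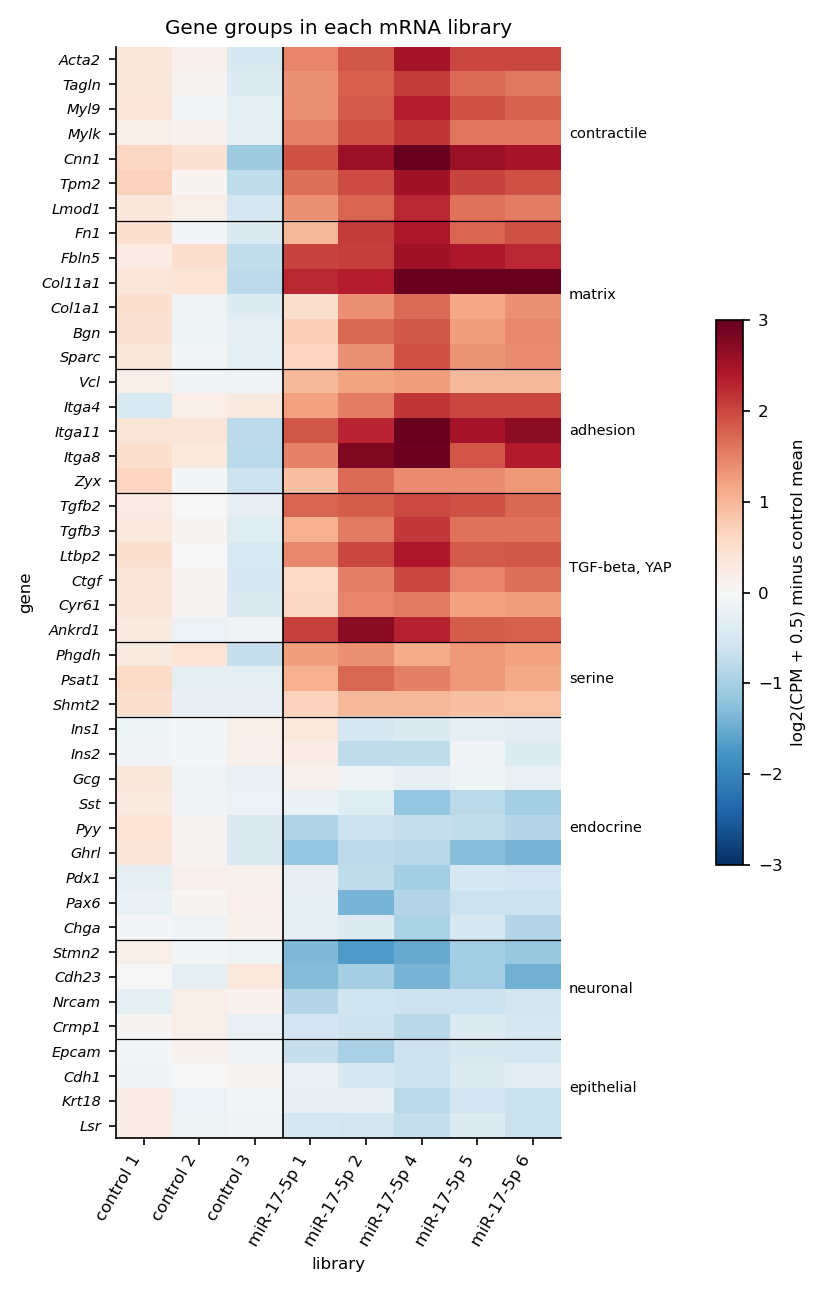
Log2(CPM + 0.5) minus the mean of the 3 control libraries (colour, red higher, blue lower, scale from -3 to 3) for genes (rows, grouped at the right) in each of the 8 mRNA libraries (columns). Contractile, matrix, adhesion and TGF-beta or YAP rows are red in all 5 miR-17-5p columns, and Ins1 and Ins2 are above the control mean in library 1 and below it in the other treated libraries.

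Transcription factors and markers of mesenchymal cells had 6 of 30 tested members called higher and 0 lower. Osr1, a factor of embryonic mesenchyme, was near absent in control at 0.563, 0.497 and 0 CPM and at 3.5, 4.2, 6.28, 5.4 and 5.12 CPM with miR-17-5p (5 of 8). Its control counts were 6, 4 and 0. Prrx1, a factor of fibroblast lineages, went from 28.9, 22.9 and 12.8 to 30.3, 71.1, 64.3, 44.2 and 47.5 CPM (1.22 ± 0.30, 2 of 8). The list count was 1 without control library 2 or 3, 2 without miR-17-5p library 4 or 5, and 4 to 8 in the other fits.

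Of 32 genes of epithelial junctions tested 4 were called lower and 0 higher by edgeR, with a median of -0.41. A fold change above 0 was found in 3 of them, beside 50.7% of all genes. DESeq2 called 8 lower and limma-voom 10. Epcam, an adhesion molecule of epithelia, was at 133, 147 and 129 CPM in control and 84.4, 69.7, 87.8, 96.9 and 94 CPM with miR-17-5p (-0.66 ± 0.13, adjusted p = 0.0138, 6 of 8). Every treated library was below every control. The serine protease inhibitor Spint2 and the junction proteins Lsr and Tjp3 had changes of -0.62, -0.58 and -0.63, called in 3, 3 and 2 of 8. E-cadherin, Cdh1, did not pass (-0.41 ± 0.12, adjusted p = 0.0824) although its groups did not overlap. The count was 0 without control library 2 or 3, 1 without miR-17-5p library 4 or 6, 2 without control library 1 and 7 without miR-17-5p library 1.

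Islet hormones and the machinery that makes and releases them had medians below 0 but few calls by edgeR. Of 16 hormone and peptide genes tested 2 were called lower and 0 higher, with a median of -0.74. DESeq2 called 5 of them lower and limma-voom 7, beside 269 and 417 of all genes. Ghrl, ghrelin, a hormone of epsilon cells that are common in the newborn islet, was at 82.7, 65 and 46.2 CPM in control and 27.9, 36.5, 35, 25.8 and 23.7 CPM with miR-17-5p (-1.13 ± 0.20, adjusted p = 0.00894, 6 of 8). Pyy, peptide YY, was at 935, 722 and 518 CPM and 377, 461, 438, 421 and 381 CPM (-0.80 ± 0.17, adjusted p = 0.0183, 6 of 8). In both genes the lowest control was above the highest treated library, and 0 members of the list were called without control library 1 or 2, 4 without miR-17-5p library 1 or 2, and 2 or 3 in the other fits.

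The main hormones overlapped or missed the threshold. Ins1 was at 203792, 216123 and 251548 CPM in control and 277026, 157177, 163812, 182139 and 177489 CPM with miR-17-5p (-0.22 ± 0.26, adjusted p = 0.692), with treated library 1 the highest of all 8 and treated library 2 the lowest. Iapp, amylin, also had treated library 1 among the controls, with 1552, 1414 and 1679 CPM in control and 1642, 656, 515, 866 and 571 CPM with miR-17-5p (-0.86 ± 0.33, adjusted p = 0.180). Gcg, glucagon, was the nearest to level (-0.13 ± 0.18, adjusted p = 0.749). Sst, somatostatin, was lower in every treated library, at 1248, 966 and 907 CPM against 895, 803, 458, 585 and 506 CPM, and did not pass (-0.68 ± 0.21, adjusted p = 0.0961).

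Granule and prohormone processing genes had 0 of 25 tested members called by edgeR. A fold change above 0 was found in 0 of the 25 (median -0.45), beside 50.7% of all genes. At an unadjusted p under 0.05 there were 15, beside 2100 of all 11077 genes, and DESeq2 called 10 and limma-voom 16 lower. Without miR-17-5p library 1, 15 were called lower, and without library 2, 1 was. The granule protein Chga was at 1235, 1179 and 1394 CPM in control and 1035, 965, 659, 910.0 and 688 CPM with miR-17-5p (-0.58 ± 0.17, adjusted p = 0.0740), and treated library 1 was the one nearest to control. Of 28 endocrine transcription factors 0 were called, with a median of -0.48, and 5 were above 0, beside 50.7% of all genes. At an unadjusted p under 0.05 there were 14, DESeq2 called 4 and limma-voom 8 lower, and edgeR called 5 lower without miR-17-5p library 1 and 1 without library 2. Pax6, a factor of all islet endocrine cells, had 235, 283 and 299.8 CPM in control and 227, 103, 147, 174 and 174 CPM with miR-17-5p (-0.72 ± 0.20, adjusted p = 0.0600).

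Of 38 genes of glucose sensing and secretion coupling 3 were called lower and 0 higher by edgeR, while DESeq2 called 6 lower and limma-voom 9. The 3 are given next. Gipr, the receptor of the incretin GIP, was at 371, 381 and 354 CPM in control and 245, 189, 179, 272 and 226 CPM with miR-17-5p (-0.73 ± 0.14, adjusted p = 0.0133, 6 of 8). Sstr3, a somatostatin receptor, was at 82.8, 77.1 and 63.3 and 54.7, 42.4, 36.9, 42.2 and 38.1 CPM (-0.80 ± 0.16, adjusted p = 0.0148, 6 of 8), and the channel subunit Kcnj11 had a change of -0.52 (2 of 8). None of the 3 had overlapping groups. The count was 0 without control library 2, 1 without control library 1 or 3, and 8 without miR-17-5p library 1. Exocytosis genes had 0 of 34 called by edgeR, 8 at an unadjusted p under 0.05, and DESeq2 called 1 lower and limma-voom 2 lower. Without miR-17-5p library 1 edgeR called 2 of them lower, without library 2 it called 1 higher, and in the other fits with 1 library left out it called 0. Genes that mature beta cells keep low had 6 of 27 called higher, Yap1, Mylk and Pcolce among them, which are also members of lists above. Another of them was Cxcl12, a chemokine of stromal cells, at 8.08, 6.09 and 3.12 CPM against 17.6, 33, 21.5, 13 and 14.5 CPM (1.72 ± 0.37, 5 of 8). That count was 1 without control library 2 or 3, 2 and 3 without miR-17-5p libraries 4 and 5, and 4 to 9 in the other fits.

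Neuronal microtubule and adhesion genes, many of which endocrine cells share with neurons, had 5 of 35 tested members called lower and 1 higher (median -0.44). Stmn2, a stathmin that binds tubulin, was at 33.4, 28.7 and 26.8 CPM in control and 11.6, 8.75, 10.02, 14.3 and 13.1 CPM with miR-17-5p (-1.37 ± 0.21, adjusted p = 0.00459, 8 of 8). Cdh23, a long cadherin, was at 29.7, 24.1 and 37.1 CPM and 11.9, 14.8, 11.1, 14.3 and 10.7 CPM (-1.26 ± 0.21, adjusted p = 0.00660, 7 of 8). Both were separated between groups. Dpysl3 rose, 76.4, 59.5 and 61.2 CPM against 140.0, 203, 203, 184 and 155 CPM (1.42 ± 0.16, adjusted p = 9.3e-04, 8 of 8), whereas its family member Crmp1 had a change of -0.60 (1 of 8). The number called lower was 1 without control library 3, 8 without miR-17-5p library 1 and 2 or 3 in the other fits.

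The other genes that fell in all 8 fits were Cxcl10, Ddx41 and Dpt. Cxcl10, an interferon-induced chemokine, was uneven in control at 74.6, 24.6 and 67.4 CPM and low in every treated library at 14.8, 11.2, 7.18, 15.3 and 9.95 CPM (-2.24 ± 0.33, adjusted p = 0.00350). The lowest control, library 2, was still above the highest treated library. Ddx41, an RNA helicase that also senses nucleic acids, was at 274, 235 and 224 CPM and 174, 124, 112, 134 and 130.1 CPM (-0.86 ± 0.14, adjusted p = 0.00660). Dpt, the matrix protein dermatopontin, was at 16.8, 12.3 and 13.4 CPM and 2.85, 5.13, 1.64, 4.05 and 3.62 CPM (-2.03 ± 0.36, adjusted p = 0.00851). Of 26 genes of chemokines and inflammation 2 were called higher, Cxcl12 and Icam1 (1.15, 2 of 8), and 1 lower, Nfkbia (-0.65, 1 of 8). These are 7.69% and 3.85%, beside 3.11% higher and 0.767% lower of all genes. Cxcl10 was the 1 called of 36 interferon-stimulated genes, whose median was -0.08, and the related chemokine Cxcl11 did not pass (-0.90 ± 0.34, adjusted p = 0.170).

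Immediate early genes split. Of 29 tested 3 were lower and 2 higher. Egr1, a transcription factor induced by growth signals, was at 127, 129.5 and 159 CPM in control and 89.7, 36.4, 64.8, 58.2 and 48.6 CPM with miR-17-5p (-1.21 ± 0.22, adjusted p = 0.0109, 7 of 8), and its groups did not overlap. Fos and Btg2 had changes of -1.14 and -0.75, called in 1 and 2 of 8, while Dusp6, a phosphatase of ERK, rose by 1.13 and Klf4 by 1.39, called in 4 and 3 of 8. In 6 of the 8 fits with 1 library left out 1 member was called lower, with 3 without miR-17-5p library 2 and 4 without library 1. The number called higher was 0 without control library 1, 2 or 3 or miR-17-5p library 5, 1 without library 4, and 2 or 3 in the other fits.

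Growth factors and their receptors had 4 of 41 called higher and 4 lower, 9.76% each, beside 3.11% higher and 0.767% lower of all genes. Nrg1, a ligand of ErbB receptors, went from 6.29, 9.56 and 3.74 to 14.1, 24.3, 26.8, 21.9 and 24.9 CPM (1.72 ± 0.32, 7 of 8). Kit, the receptor of stem cell factor, was at 71.6, 84.7 and 92.4 CPM in control and 42.6, 48.4, 42, 45 and 56.2 CPM with miR-17-5p (-0.82 ± 0.15, adjusted p = 0.00854, 6 of 8). Fgfr4, a fibroblast growth factor receptor, was at 60.5, 66.7 and 90.8 CPM and 40.3, 16.1, 21.1, 33 and 34.1 CPM (-1.31 ± 0.26, adjusted p = 0.0135, 6 of 8). Both receptors were lower in all treated libraries. No member was called lower without control library 2 or 3, 2 were without control library 1 or miR-17-5p library 4 or 6, and 3 or 4 in the other fits. The number higher was 0 without control library 3, 1 without control library 2 or miR-17-5p library 4, 5 or 6, and 3 or 4 in the other fits. Among 37 Wnt, Hedgehog and Notch genes 4 were called higher and 0 lower: Dkk3, a secreted Dickkopf protein, from 19.5, 21.1 and 14 to 50.9, 58.5, 90.2, 55 and 52.7 CPM (1.73 ± 0.23, 8 of 8), Notch2 (0.90, 6 of 8), Fzd2 (1.45, 6 of 8) and Fzd1 (1.48, 2 of 8). This count was 1 without control library 2 or 3 and 3 to 6 in the other fits.

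Among 35 genes of the stress responses of the endoplasmic reticulum 4 were called higher, and they were not chaperones but enzymes of serine and folate metabolism that the same pathway controls. Phgdh, the first enzyme of serine synthesis, was at 29.7, 32.8 and 15 CPM in control and 58.8, 63.9, 53.5, 61 and 56.8 CPM with miR-17-5p (1.16 ± 0.21, adjusted p = 0.00955, 8 of 8). Psat1, the next enzyme, was at 18, 9.81 and 9.67 and 25.7, 41, 35.3, 30.2 and 27 CPM (1.32 ± 0.26, 6 of 8). Neither overlapped, and the treated values of Phgdh spread by less than its controls. The mitochondrial folate enzymes Shmt2 and Mthfd2 had changes of 0.85 and 0.56, called in 5 and 1 of 8. The list's median was 0.04, and Asns, another target of the amino acid response, did not pass (0.15 ± 0.15, adjusted p = 0.628). The list's count was 1 without control library 2 or 3, 2 without miR-17-5p library 4, and 3 to 5 in the other fits.

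Cytosolic ribosomal protein genes had 4 of 60 called higher (6.67%, beside 3.11% of all genes), with a fold change above 0 in 60 of 60 and a median of 0.42. Of all genes tested 50.7% had a fold change above 0. Rps20, a protein of the small subunit, was at 462, 353 and 411 CPM in control and 588, 899.8, 786, 619 and 552 CPM with miR-17-5p (0.75 ± 0.18, 3 of 8), and its groups did not overlap. The count was 10 without miR-17-5p library 1, 0 without control library 2 or 3 or miR-17-5p library 4 or 5, 2 without control library 1 or miR-17-5p library 2, and 3 without library 6. Of all 11077 genes 2100 had an unadjusted p under 0.05 by edgeR, the share to set beside the next counts. By edgeR 0 of 45 respiratory chain genes were called, with 5 at an unadjusted p under 0.05, and 1 by DESeq2 and 0 by limma-voom. Glycolysis genes had 0 of 29 called by edgeR, 7 at an unadjusted p under 0.05, 2 by DESeq2 and 4 by limma-voom. Genes of cholesterol and lipid synthesis had 0 of 32 called by edgeR, 7 at an unadjusted p under 0.05, 1 by DESeq2 and 2 by limma-voom. Genes of retinoid, steroid and xenobiotic metabolism had 0 of 38 called by edgeR, 5 at an unadjusted p under 0.05, and 1 by each of the other tools.

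Genes known from the literature as targets of the miR-17 family were examined as a list of their own. Of 48 tested 0 were called lower and 1 (2.08%) higher by edgeR, beside 0.767% lower and 3.11% higher of all genes. With so few calls expected at those shares, these counts cannot show whether targets as a set fell. The median was -0.10 beside 0.01 for all genes, and 19 of 48 were above 0, beside 50.7% of all genes. At an unadjusted p under 0.05 there were 15, beside 2100 of all 11077 genes. DESeq2 called 3 lower and 2 higher, and limma-voom 1 lower and 2 higher. The number called higher was 3 without miR-17-5p library 1 and 1 in every other fit with 1 library left out, and 1 was called lower without miR-17-5p library 1 or 6. The summed level of the list was 2807 to 3058 CPM in control and 2642 to 2801 CPM with miR-17-5p, without overlap. The called member was Crim1, a membrane protein that binds bone morphogenetic proteins, at 45.7, 37.9 and 29.95 CPM in control and 82.8, 86.1, 90.8, 81.9 and 85.1 CPM with miR-17-5p (1.16 ± 0.15, adjusted p = 0.00138, 8 of 8). It is also a YAP target and rose in every treated library. Of the 48, 9 had all treated libraries below all controls and 5 had all above, beside 740 (6.68%) and 943 (8.51%) of all 11077 genes.

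Closest to a call among the lower targets was Znfx1, a helicase with a zinc finger, at 47.7, 44.5 and 61.8 CPM in control and 21.4, 24.7, 23.3, 34.6 and 40.8 CPM with miR-17-5p (-0.82 ± 0.22, adjusted p = 0.0577). Ccnd2, cyclin D2, was at 143, 158 and 166 CPM and 119.9, 81.9, 115, 125 and 118 CPM (-0.48 ± 0.14, adjusted p = 0.0848). Both were lower in all treated libraries without passing. Cdkn1a, the cell cycle inhibitor p21, had 54.1, 26.6 and 24 CPM in control and 33, 60.1, 46.5, 33 and 30.3 CPM with miR-17-5p, with overlapping groups (0.20 ± 0.29, adjusted p = 0.770). E2f1 and the pro-apoptotic Bcl2l11, at under 20 CPM in all libraries, had changes of 0.45 ± 0.48 and 0.12 ± 0.61 (adjusted p = 0.668 and 0.939). Txnip, a regulator of redox state in beta cells, had -0.18 ± 0.26 (adjusted p = 0.772). Seed sites in transcripts were not analysed here.

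Cell cycle genes had 0 of 44 called by edgeR, with a median of 0.35, and 37 were above 0, beside 50.7% of all genes. At an unadjusted p under 0.05 there were 13, and DESeq2 called 4 higher and 1 lower and limma-voom 1 lower. Mcm6, a subunit of the replication helicase, came nearest, at 19.4, 20.5 and 16.5 CPM in control and 27.9, 41.5, 36.6, 28.7 and 26.8 CPM with miR-17-5p (0.77 ± 0.20, adjusted p = 0.0538). Its treated values were all above the controls. Of 37 apoptosis genes 1 was called higher (2.70%), no larger a share than the 3.11% of all genes, and 0 lower. It was Bak1, a pore-forming protein of mitochondria (0.68 ± 0.15, 4 of 8). Of 28 genes of the microRNA machinery 0 were called by edgeR, DESeq2 or limma-voom, with 5 at an unadjusted p under 0.05, and Eif2c1, which encodes the Argonaute Ago1, had -0.46 ± 0.19 (adjusted p = 0.212).

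Markers of the other cell types moved in several ways. Endothelial markers were called lower in 2 of 14 and higher in 0. Cdh5, the cadherin of endothelial junctions, was at 25.6, 21.1 and 15.3 CPM in control and 3.5, 10.04, 3.14, 4.89 and 6.63 CPM with miR-17-5p (-1.88 ± 0.36, adjusted p = 0.0121, 6 of 8), and the receptor Kdr at 12, 4.6 and 17.5 and 2.05, 2.33, 2.99, 3.2 and 3.62 CPM (-1.99 ± 0.44, 4 of 8). Neither overlapped. The count was 0 without control library 1, 1 without control library 2 or 3 or miR-17-5p library 4 or 5, and 2 or 3 in the other fits. Summed over 17 markers the endothelial level did overlap, 198 to 311 CPM in control and 167 to 341 CPM with miR-17-5p, and Robo4 was at 0.

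Red blood cell genes were called lower in 3 of 4 tested, with a summed level of 34.7 to 152 CPM in control and 10.3 to 26.8 CPM with miR-17-5p. The hemoglobin gene Hbb was at 30.5, 5.84 and 12.5 CPM in control and 1.35, 4.2, 2.09, 0.506 and 2.61 CPM with miR-17-5p (-2.92 ± 0.57, 5 of 8), with control library 1 far above the rest. Hba1 and Hba2, near-identical copies, had changes of -2.40 and -2.34. The count was 0 without control library 1, 1 without control library 3 or miR-17-5p library 4, and 3 in the other fits. Macrophage and leukocyte markers had 0 of 17 called by edgeR and 17 of 17 above 0, beside 50.7% of all genes. There were 3 at an unadjusted p under 0.05, 1 called by DESeq2 and 0 by limma-voom. edgeR called 2 without control library 2 and 1 without miR-17-5p library 1, and their sums overlapped, 106 to 414 CPM against 235 to 565 CPM.

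Beta cell markers had 0 of 7 called by edgeR, 2 at an unadjusted p under 0.05, 1 by DESeq2 and 2 by limma-voom. Of the 7, 0 were above 0, beside 50.7% of all genes, and their sum, made mostly of Ins1 and Ins2, overlapped. The mesothelial marker sum was made mostly of Msln, mesothelin, which did not pass (-0.43 ± 0.14, adjusted p = 0.121). It was 2388 to 2705 CPM in control and 1666 to 2230.1 CPM with miR-17-5p, without overlap. Acinar markers had 0 of 9 called by edgeR, 3 at an unadjusted p under 0.05, 1 by DESeq2 and 0 by limma-voom. Duct markers had 0 of 5 called by the 3 tools and 1 at an unadjusted p under 0.05. The acinar sum was 148 to 158 CPM in control and 118 to 211 CPM with miR-17-5p, with Pnlip at 0. Of 9 Schwann and neural markers 1 was called higher, Cryab, a small heat shock protein that other cells also make (1.01 ± 0.25, 5 of 8).

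**Figure D5:**
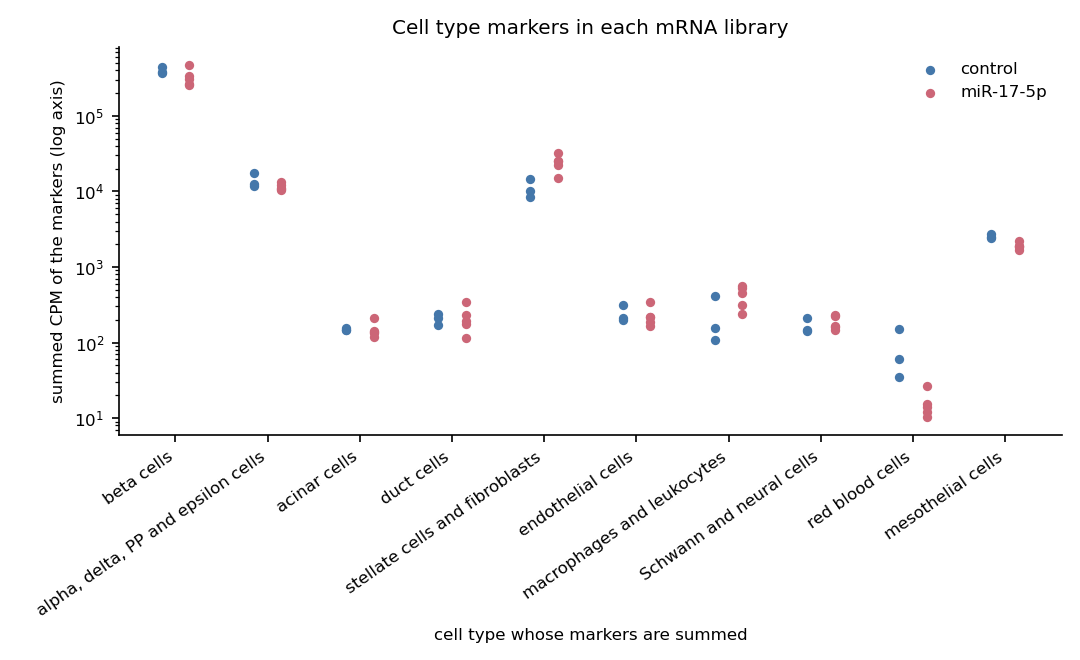
Summed CPM of the markers of 10 cell types (horizontal axis) in each mRNA library, on a log axis, with control in blue (n = 3) and miR-17-5p in red (n = 5). The groups separate for stellate cells and fibroblasts (treated higher), and for red blood cells and mesothelial cells (treated lower), and overlap for the other 7. The stellate cell and fibroblast sum is made mostly of Col1a1.

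The leading mRNA changes were then set beside those in Ago2-bound RNA, from 3 control and 4 miR-17-5p RISC libraries, to ask whether they differed between the library types. Control RISC libraries 1, 2 and 3 had counts for 7201, 7424 and 5589 genes, although control library 1 was the deepest RISC library. Treated RISC libraries 2, 4, 5 and 6 had counts for 10304, 9040, 10753 and 9788 genes. The part of this difference in the RISC and interaction results was not tested. In RISC 35 of 9443 genes (0.371%) were called, and 27 of these 35 were among the 429 called in mRNA. Libraries of a group spread more in RISC, with a common biological coefficient of variation of 1.23 beside 0.305 in mRNA. It was 0.871 in the interaction fit below. A gene not called in RISC or in the interaction may therefore still differ. Of the 344 genes called higher in mRNA 334 could be tested in RISC, and 301 of them had a RISC fold change above 0, as had 5574 (59%) of the 9443 genes tested in RISC. The interaction of library type and mimic was called for 1533 of 11418 genes (13.4%). Of these, 1488 had a higher and 45 a lower change in RISC than in mRNA, and the median difference over all 11418 genes was 0.40. With mRNA and RISC libraries of the same group and title number taken as 1 culture, 30 genes were called in place of 1533, and the median difference was 1.47. The fit with cultures also has fewer residual degrees of freedom, and miR-17-5p mRNA library 1 has no RISC partner. The cause of the fall in calls was not tested.

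For Vcl the log2 change was 1.07 ± 0.13 in mRNA and 1.40 ± 0.18 in RISC, with a difference (RISC minus mRNA) of 0.31 ± 0.18 (edgeR adjusted p = 0.349). In RISC it was at 249, 278 and 296 CPM in control libraries 1, 2 and 3 and at 718, 738, 748 and 695 CPM in miR-17-5p libraries 2, 4, 5 and 6. Col11a1 had 2.83 ± 0.37 in mRNA and 2.79 ± 0.40 in RISC (difference -0.08 ± 0.54, adjusted p = 1.00). The interaction was not called for these genes, nor for Akap12 (difference -0.32 ± 0.31, adjusted p = 0.703), Adam19 (0.29 ± 0.35, adjusted p = 0.782) and Fstl1 (0.60 ± 0.36, adjusted p = 0.361). Acta2, at 318, 347 and 93.9 CPM in control RISC and 2968, 3086, 2034 and 2436 CPM in treated RISC libraries, had a difference of 1.40 ± 0.50 (adjusted p = 0.0838).

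The interaction was called for Fam198b and Cdh3, with the higher change in RISC. With the title number as a block Cdh3 was called (adjusted p = 0.0182) and Fam198b was not (adjusted p = 0.0738). Fam198b was near 0 in control RISC libraries, at 0.0642, 0.385 and 0.376 CPM, and at 77.5, 74.8, 88.2 and 41.3 CPM in treated ones (interaction adjusted p = 1.6e-04). Cdh3, placental cadherin, was at 0.0642, 0.128 and 0 CPM and 111, 75.9, 103 and 134 CPM (interaction adjusted p = 6.6e-05), whereas in mRNA its controls were at 16.9, 8.57 and 4.99 CPM and its treated libraries at 25.8, 50.3, 88.2, 48.2 and 57.4 CPM. Fitted fold changes for these genes rest on a few control counts and are not printed. Of the genes that fell in all fits, Ddx41 had -0.79 ± 0.61 in RISC (difference 0.05 ± 0.58, adjusted p = 1.00) and Cxcl10 -0.70 ± 0.69 (difference 1.52 ± 0.80, adjusted p = 0.274). With 1 library left out the RISC fit called 0 genes without miR-17-5p library 2, 5 or 6 and 548 without library 4. It called 26, 1225 and 122 genes without control RISC libraries 1, 2 and 3. The interaction fit called 2412 and 2853 genes without control RISC libraries 1 and 2, and 1203 to 2000 in the other fits.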

How the data were processed

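Counts per gene were deposited, 1 table per library. The authors used TopHat2 2.0.10, Bowtie2, the build rn5 and HTSeq to make these counts, per the submitters' processing notes, which also name DESeq and edgeR. The sources used here give no other versions. Total RNA was extracted with Trizol, mRNA was selected with oligo(dT), and libraries were single-end without strand, per the labels' protocols. Overlapping and antisense genes therefore cannot be told apart, and near-identical copies (Ins1 and Ins2, globins, actins) are uncertain. Tables held 17055 gene symbols, of which 14175 matched RefSeq (GRCr8), used for names and sequences. Summary lines stayed out: non-unique alignments were 15.0% to 29.1% and ambiguous ones 0.377% to 0.454% of gene counts and summary lines together.

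From the counts, edgeR 4.0.16 in R 4.3.3 tested 3 control against 5 miR-17-5p libraries with TMM factors, filterByExpr and robust two-sided quasi-likelihood F-tests, Benjamini-Hochberg adjusted over all genes tested and called under 0.05. The common biological coefficient of variation of this mRNA fit was 0.305. The RISC fit used 7 libraries, and its coefficient was 1.23. The interaction fit used 15 libraries of both types, and its coefficient was 0.871. CPM uses TMM factors. The steps were tested on simulated data. No pair of libraries held the same counts. A floor of 3 counts covers counting error only.

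Members and the 42 gene lists were chosen with earlier results of these data known, so list counts are descriptions. Named were the 15 genes with the smallest p and the 10 with the largest change in each direction among called genes whose mean log2 CPM was 3 or more, the up to 4 smallest p of each list, and a set of hormones (Gcg, Ins1, Ins2, Sst) and targets (Bcl2l11, Cdkn1a, E2f1, Tgfbr2, Txnip). A last part of the rule, on genes with seed sites, was not applied. Further list members and Actb, Actg1, Dpt, Bcat1, Iars, Nars, Aldh1l2, Cd163, Mrc1, Lgals3, Hmcn1, Wisp1, Unc5b, Htra1, Grb10, Cd44, Anxa2, Tmsb10 and Lgals1 were chosen once values were known. The alternatives were other scalings, filters, DESeq2 1.42.0, limma-voom (limma 3.58.1), a replicate block and each library left out.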

Additional observations from a re-analysis of the deposited data

Results flagged for a closer look

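Of 34 values examined in the treated group for a library far from the others, 1 stood out: miR-17-5p library 1 held 21056240 counts, and its gap to the next library was 0.758 of the range of the group, above 0.71, the limit for 5 samples. Chance puts about 1 in 20 groups past this limit. The same library was the nearest to the controls on the first principal component, had the highest Ins1 and the lowest treated Acta2, and the number of calls rose from 429 to 816 without it. The part of its depth in these values was not tested.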

How the results depend on the processing

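Of 429 genes called, scaling by DESeq2 size factors called 417 (408 shared), upper quartile scaling 437 (419 shared), scaling without Ins1, Ins2 and Rn45s 401 (399 shared), no filter 466 and a mean of at least 50 counts 512. The DESeq2 Wald test called 887, which held all 429, and limma-voom with quality weights 1001, which held 418. Among members of the gene lists 148 of 1078 were called, 232 by DESeq2 and 273 by limma-voom. With each library left out the genes called ranged from 85 to 816, the list members from 43 to 234, RISC calls from 0 to 1225 and interaction calls from 1203 to 2853. The cause of these moves was not tested.

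With the replicate number of the titles as a block, 0 genes and 0 list members were called by edgeR (461 genes at an unadjusted p under 0.05), and the interaction had 30. This mRNA fit has 1 residual degree of freedom, so the loss of its calls says nothing of their stability. The numbers 1 and 2 are the ones shared by the groups, and same-numbered libraries did not deviate together (r = -0.192 and -0.0657). Deviations from the means of such small groups constrain r, so these 2 values cannot exclude a shared culture. The main fit does not take the numbers to pair the samples. No paired analysis was possible for RISC alone because its groups share 1 number.

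Of 97 called named genes 0 changed sign under the alternatives that tested them, and of 81 that were not called 9 did in at least 1. Genes called in these same libraries were unlikely to change sign, so the 0 is not separate evidence for them. With a mean of at least 50 counts 163 of the 178 were tested, and 177 without miR-17-5p library 1, 4 or 6. Leaving out control library 3 lost 58 calls and control library 2 lost 52. Calls were gained by 29 with DESeq2, 29 with limma-voom and 21 without miR-17-5p library 1. The planned comparison of seed sites was not run. In control library 3, the shallowest, 3 counts are 0.888 CPM, which limits what can be said of genes near that level.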

Other observations

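Several called genes belong to none of the gene lists and were picked after their values were seen. Hmcn1, the large matrix protein hemicentin, was at 14.4, 9.44 and 17.5 CPM in control and 55.7, 32.6, 58.6, 54.5 and 60.8 CPM with miR-17-5p (1.96 ± 0.25, edgeR adjusted p = 0.00136, called in 8 of 8 fits with 1 library left out). Wisp1, a relative of Ctgf, was at 11.6, 9.44 and 4.37 CPM and 25.4, 61.8, 47, 36.4 and 43.2 CPM (2.26 ± 0.33, 8 of 8). Both were higher in all treated libraries. Unc5b, a netrin receptor, Htra1, a secreted serine protease, and Grb10, an adaptor that damps insulin receptor signalling, were called in 8 of 8 fits with changes of 1.36, 1.17 and 1.28. Unc5b had 104, 114, 116, 114 and 109 CPM in the treated libraries, a narrow range, against 59.8, 32.8 and 36.5 CPM in control.

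Bcat1, the cytosolic transaminase of branched-chain amino acids, was at 55.6, 35.4 and 31.2 CPM in control and 89.98, 105, 141, 94.6 and 100.5 CPM with miR-17-5p (1.36 ± 0.21, adjusted p = 0.00383, 8 of 8). The isoleucyl-tRNA synthetase Iars rose by 0.73 (6 of 8), Nars, that of asparagine, by 0.50 (1 of 8), and Aldh1l2, a mitochondrial folate enzyme, by 1.23 (4 of 8). Cd44, Anxa2, Tmsb10 and Lgals1 had changes of 1.03, 1.11, 1.08 and 0.91, called in 6, 6, 6 and 4 of 8. Lgals3, galectin 3, had the opposite sign to Lgals1, at 1388, 738 and 1189 CPM in control and 759.9, 467, 451, 395 and 324 CPM with miR-17-5p (-1.20 ± 0.26, 3 of 8), with control library 2 below treated library 1.

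The macrophage scavenger receptor Cd163 had 1, 0 and 0 counts in control and was at 1.35, 23.1, 4.04, 1.69 and 3.72 CPM in the treated libraries, with library 2 far above the others (5 of 8). Mrc1, the mannose receptor, was at 2.72, 5.34 and 3.12 CPM and 5.17, 16.9, 21.4, 15.8 and 16.5 CPM (2.00 ± 0.45, 2 of 8) with overlapping groups. The summed level of 20 other macrophage and leukocyte markers overlapped between the groups, and the part of these cells in the result was not tested.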
